A study of Mus musculus with 9 samples.

Results

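Kidneys of the CDH16KO-AngII group were compared with those of AngII and GRPR-AngII, the other groups of the study, as 1 pooled comparator. The comparison set 3 of the 9 libraries against the other 6, and each of the 2 other groups carried equal weight. All 9 libraries were bulk RNA-seq of kidney tissue from mice treated with AngII (angiotensin II, the peptide hormone that constricts vessels and raises blood pressure), so no untreated kidney enters the comparison. CDH16KO-AngII mice had the genotype CDH16 Cre+/Tmemfl/fl. They carried a floxed Tmem allele and a Cre recombinase named for Cdh16, the cadherin gene of kidney tubule epithelium whose promoter is used to drive Cre there. AngII mice were Tmemfl/fl without that Cre, and GRPR-AngII mice were CDH16 Cre+/GRPRfl/fl, with the Cre and floxed GRPR. There were 3 libraries of each. The comparator therefore held mice with the floxed Tmem allele alone and mice with the Cre alone, beside a second floxed gene, and only CDH16KO-AngII combined that Cre with that allele. The labels give no age, dose or treatment time, and they do not say that libraries came from separate animals, so the p-values speak of library-to-library spread, which may be technical.

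According to its title the series is about chronic kidney disease in hypertension, STING, the innate immune adaptor for cytosolic DNA, and ACSL4, the enzyme that attaches polyunsaturated fatty acids to coenzyme A. Tubule cells of the renal cortex, above all those of the proximal tubule, draw most of their energy from fatty acids. Long acyl chains enter mitochondria as carnitine esters for beta-oxidation, very long and branched chains are shortened in peroxisomes, and CYP4A enzymes hydroxylate the omega end of the chain. Many genes of these routes, with Vnn1 and Angptl4, are known targets of the fatty acid receptor PPAR-alpha, which binds DNA with its partner RXR at paired half-sites.

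Libraries held 40731748 to 60449117 counts, and mitochondria-coded genes took 16.1% to 26.4% of them. That share was 21.98% ± 5.29 in CDH16KO-AngII (SD, n = 3) and 19.8% ± 2.79 in the 6 others (SD, n = 6), and the exact two-sided permutation p was 0.417 (the smallest possible with 3 against 6 is 0.0119). Kidney segment markers were present in all 9 libraries: Lrp2 of the proximal tubule at 495 to 922 CPM (counts per 1e+06 of the library total after TMM scaling), Umod of the thick ascending limb at 1428 to 2647 CPM, Aqp2 of the collecting duct at 95.2 to 566 CPM and the podocyte gene Nphs1 at 33.9 to 49.2 CPM. CDH16KO-AngII library 2 stood apart within its group, with the lowest mitochondrial share of all 9 libraries. CDH16KO-AngII library 1 stood apart at the pseudogene-named Rps3a3, at 0.762 CPM where libraries 2 and 3 had 83.6 and 79.6 CPM.

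Of 32593 genes, 12507 reached an FPKM (fragments per kilobase of transcript per 1e+06 fragments) of 1 in at least 3 libraries and were tested with edgeR. With a Benjamini-Hochberg adjusted p under 0.05 as the threshold for a call, 21 genes (0.168% of those tested) were higher in CDH16KO-AngII and 15 (0.12%) were lower. All 3 CDH16KO-AngII libraries lay above all 6 others at 205 genes (1.64%) and below them at 208 (1.66%). Some of the higher genes reached the filter only through the CDH16KO-AngII libraries. The shares called higher or above the others were thus partly set by the filter. The median log2 fold change over all tested genes was 0.02, and 47.1% of them had a negative value. The 2 comparator groups were not alike at every gene: GRPR-AngII against AngII had 0 edgeR calls, 843 genes (6.74%) with an unadjusted p under 0.05 and 54 calls by DESeq2.

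The floxed and Cre-naming genes were examined first. Sting1, formerly Tmem173, is the gene that the title and the allele name point to, although the labels write only Tmem. It stood at 2.15, 2.24 and 2.04 CPM in CDH16KO-AngII, at 4.62, 1.77 and 5.33 CPM in AngII and at 2.897, 2.895 and 2.68 CPM in GRPR-AngII. The CDH16KO-AngII libraries lay below 5 of the 6 others and above AngII library 2 (exact two-sided permutation p = 0.131). Sting1 was below the expression filter, and at a lower filter (FPKM 0.1) its log2 fold change was −0.63 (edgeR adjusted p = 0.718). The floxed exons are not named in the labels. In bulk kidney tissue fewer cells that express a gene and less of its RNA per cell cannot be told apart. Mean Cdh16 expression was 659 ± 52.9 CPM (CDH16KO-AngII), 713 ± 83.1 CPM (AngII) and 590.3 ± 80.02 CPM (GRPR-AngII) (SD, n = 3 each; log2 fold change 0.02, edgeR adjusted p = 0.975). The values of Acsl4 were 16.5 ± 3.91, 19.8 ± 0.291 and 16.9 ± 2.11 CPM in the same order (log2 fold change −0.15, edgeR adjusted p = 0.876), and their log2 fold change was −0.36 without CDH16KO-AngII library 2 and −0.02 without library 3.

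The genes called lower were mostly genes of lipid metabolism and of the proximal tubule. Among the lipid genes, Vnn1 had the smallest p. It encodes vanin 1, a pantetheinase that releases cysteamine from pantetheine, and lies on chromosome 10 (23894688 to 23905343, GRCm38). Vnn1 stood at 43.4, 34.4 and 25.2 CPM in the CDH16KO-AngII libraries. It stood at 102, 84.8 and 115 CPM in AngII and at 89.05, 100.2 and 119 CPM in GRPR-AngII. Every CDH16KO-AngII library was below every other library, and the 2 comparator groups overlapped. The fall was 2.96-fold (log2 fold change −1.57, SE 0.19, edgeR adjusted p = 0.00651). Angptl4, a secreted inhibitor of lipoprotein lipase, stood at 30.2, 13.7 and 17.2 CPM against 44.8 to 100.1 CPM in AngII and 65.8 to 122 CPM in GRPR-AngII. It fell 4.20-fold without overlap (log2 fold change −2.07, SE 0.35, edgeR adjusted p = 0.0393).

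These 2 were the called members of a list of 27 genes of PPAR-responsive lipid uptake, storage and signalling, of which 22 were tested. The list's median log2 fold change was −0.29, with 16 of 22 members negative, where 47.1% of all tested genes were. Below all 6 other libraries lay 5 (22.7%, against 1.66% of all tested genes). Pdk4, a kinase that turns off pyruvate dehydrogenase, had a log2 fold change of −1.02 (edgeR adjusted p = 0.193) and its ranges overlapped, since CDH16KO-AngII library 1 at 15.6 CPM was above GRPR-AngII library 3 at 15.2 CPM. The receptor gene itself, Ppara, averaged 5.98 CPM, between AngII at 7.04 CPM and GRPR-AngII at 4.91 CPM (log2 fold change 0.02, edgeR adjusted p = 0.983).

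**Figure D1:**
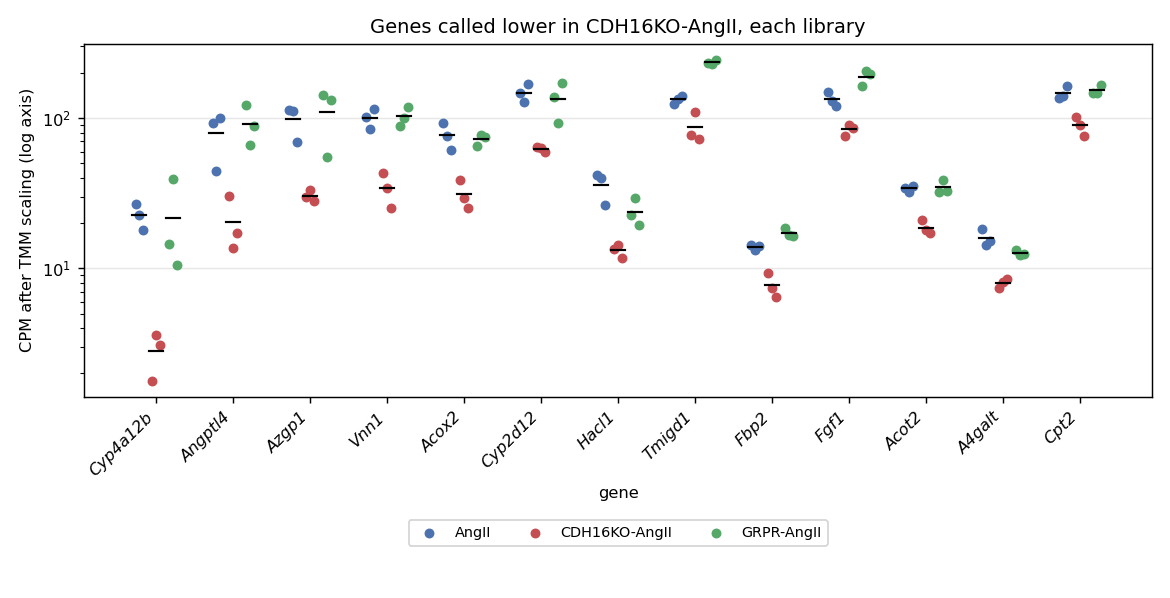
Expression of the 13 named genes called lower in CDH16KO-AngII, in CPM on a log axis, with 1 point per library and a line at each group mean. By the rule for naming, the 3 CDH16KO-AngII points of each gene lie below all 6 others. For Vnn1 they sit between 25.2 and 43.4 CPM.

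Peroxisomal fatty acid oxidation had 27 tested genes of 28 listed. Of these 25 had a negative log2 fold change, the median was −0.44, and 12 (44.4%) lay below all 6 other libraries, where 1.66% of all tested genes did. The called genes were the branched-chain enzymes Acox2 and Hacl1. Acox2, the oxidase of branched acyl chains and bile acid intermediates (chromosome 14, 8225511 to 8259353), stood at 38.6, 29.4 and 25.2 CPM against 61.4 to 93.3 CPM in AngII and 65.1 to 77.5 CPM in GRPR-AngII. It fell 2.40-fold (log2 fold change −1.27, SE 0.18, edgeR adjusted p = 0.0176). Hacl1, the lyase of alpha-oxidation, which removes 1 carbon from branched chains, stood at 13.6, 14.3 and 11.7 CPM. Its AngII libraries were at 26.6 to 41.8 CPM and its GRPR-AngII libraries at 19.5 to 29.5 CPM, a 2.23-fold fall (log2 fold change −1.16, SE 0.19, edgeR adjusted p = 0.0393). Hacl1 was also lower in GRPR-AngII than in AngII by a log2 fold change of −0.60, at an unadjusted p of 0.0158 and an edgeR adjusted p of 0.703. Its longest transcript shares 53% of its length with the model Gm49387, and its span overlaps Btd on the opposite strand. Part of its reads may therefore not be its own.

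Other peroxisomal genes did not pass the threshold. Nudt7, a coenzyme A diphosphatase of the peroxisome, stood at 6.80, 9.89 and 9.79 CPM against 13.6 to 19.4 CPM in the 6 others (log2 fold change −0.91, SE 0.16, edgeR adjusted p = 0.0559). Ehhadh, the bifunctional enzyme of peroxisomal beta-oxidation, stood at 118, 204 and 77.7 CPM against 292 to 542 CPM (log2 fold change −1.56, SE 0.30, edgeR adjusted p = 0.0794). Both had ranges that did not overlap, and for both library 2 was the highest of the CDH16KO-AngII group. The 2 members with a positive value were Nudt19 at 0.56 and Amacr at 0.19, neither of them called.

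Promoter sequence of Acox2 is shown because PPAR-alpha and RXR bind a direct repeat of the half-site AGGTCA spaced by 1 base. The repeat AGGTCANAGGTCA was searched on both strands, with up to 2 mismatches outside N, in RefSeq promoters of GRCm38.p6 (250 bases before to 50 after each annotated start). It occurred in 1268 of 32851 promoters (3.86%), in 1 of the 8 named lower genes with an entry and in 0 of the 6 named higher genes with an entry. The match in Acox2 lies on the gene's strand from base 10 of the transcript, at the downstream of its 2 annotated starts (window chr14:8258790-8259089, minus strand). The upstream start's window held none. Capitals mark the match, which is a description of letters and not a measured binding site.
Acox2: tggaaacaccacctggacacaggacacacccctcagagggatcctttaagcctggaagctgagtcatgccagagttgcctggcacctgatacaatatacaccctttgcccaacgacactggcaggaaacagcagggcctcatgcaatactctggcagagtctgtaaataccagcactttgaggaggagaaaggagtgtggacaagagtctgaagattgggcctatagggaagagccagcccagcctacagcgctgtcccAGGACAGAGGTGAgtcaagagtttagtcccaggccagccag

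Mitochondrial fatty acid oxidation had 26 tested genes of 26 listed, with 22 negative and a median log2 fold change of −0.43. Below all 6 others lay 8 (30.8%, against 1.66% of all tested genes). Acot2, a thioesterase that cleaves acyl-CoA in the matrix (chromosome 12, 83987861 to 83993873), stood at 21, 17.9 and 17.3 CPM. It stood at 34.5, 32.2 and 35.6 CPM in AngII and at 32.3, 38.9 and 32.7 CPM in GRPR-AngII. The comparator groups were nearly level and CDH16KO-AngII lay well under both, a 1.84-fold fall (log2 fold change −0.88, SE 0.12, edgeR adjusted p = 0.0149). Acot2 shares 58% of its longest transcript with Acot1, so reads of the pair may be exchanged. Cpt2, the inner-membrane carnitine palmitoyltransferase, stood at 101, 90.3 and 76.6 CPM against 137 to 165 CPM in the 6 others and fell 1.68-fold (log2 fold change −0.75, SE 0.13, edgeR adjusted p = 0.0462). The carnitine carriers Slc25a20, of the inner mitochondrial membrane, and Slc22a5, of the plasma membrane, had log2 fold changes of −0.67 and −0.61 without overlap (edgeR adjusted p = 0.0984 and 0.105). The 4 members above 0 were Acad10, Cpt1b, Acot13 and Acad12, at 0.10 or less.

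Among Cyp4 omega-hydroxylases, 11 of 16 listed genes were tested, with a median log2 fold change of −0.92. Below all 6 others lay 4 (36.4%, against 1.66% of all tested genes). Cyp4a12b was called. It stood at 1.79, 3.60 and 3.09 CPM in CDH16KO-AngII, at 26.8, 22.8 and 18.1 CPM in AngII and at 14.6, 39.6 and 10.5 CPM in GRPR-AngII. This was the largest fall among the named genes called lower, 7.80-fold (log2 fold change −2.96, SE 0.45, edgeR adjusted p = 0.0249). Cyp4a12b matches Cyp4a12a over 100% of its longest transcript at up to 98.3% identity, and their reads cannot be assigned with certainty. Cyp4a12a, which like Cyp4a12b is known as a male-biased kidney gene, stood at 7.20, 17.3 and 14.2 CPM against 33.1 to 99.5 CPM (log2 fold change −2.23, SE 0.41, edgeR adjusted p = 0.0625). All 9 libraries had the RNA pattern of males, with the Y-linked Eif2s3y at 47.3 to 69.7 CPM and Xist at 0.112 to 0.531 CPM. Male-biased and female-biased kidney genes had like medians, −0.40 over 15 and −0.41 over 10 tested genes. Cyp4a10 and Cyp4a31 had log2 fold changes of −1.63 and −0.99 without overlap (edgeR adjusted p = 0.0707 and 0.0923). The Cyp4f members, Cyp4v3 and Cyp4b1 lay between −0.17 and 0.11, so the low values of the list were those of the Cyp4a genes.

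**Figure D2:**
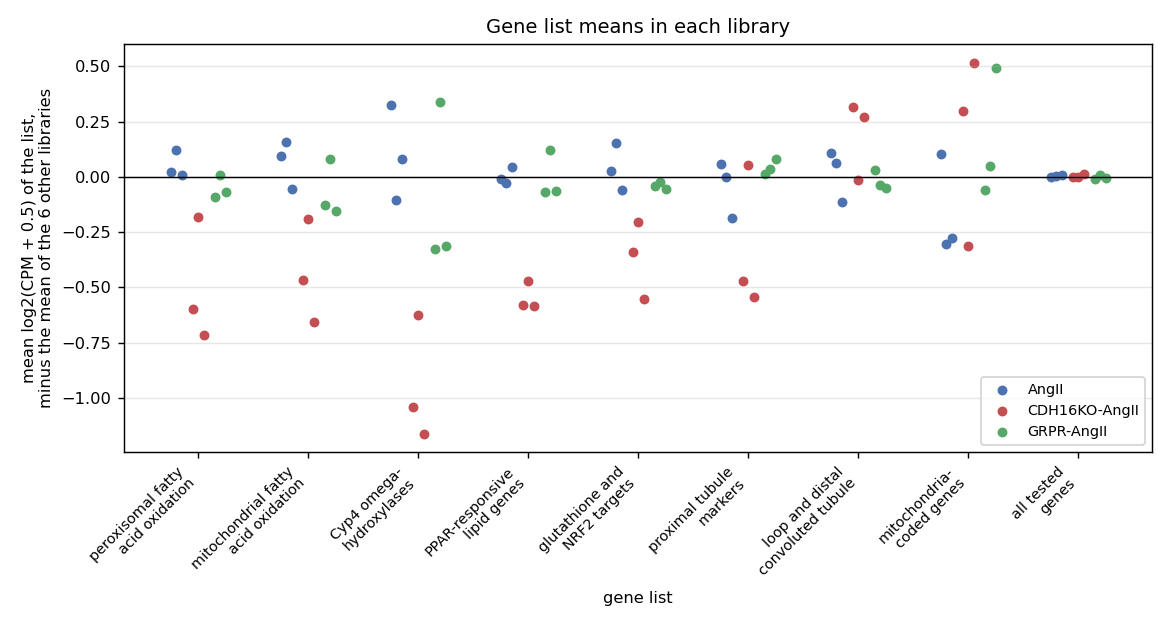
Mean log2(CPM + 0.5) of 8 gene lists and of all tested genes in each library, as the difference from the mean of the 6 other libraries. For both oxidation lists, the Cyp4, PPAR-responsive and glutathione lists all 3 CDH16KO-AngII points lie below all 6 others. CDH16KO-AngII library 2 lies with the others for proximal tubule markers and for loop and distal convoluted tubule markers.

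Markers of the proximal tubule moved with these genes, and not in every library. Values were negative for 33 of the 42 tested markers, and the median log2 fold change was −0.30. The mean log2(CPM + 0.5) over the markers was 8.29, 8.81 and 8.21 in CDH16KO-AngII libraries 1 to 3, against 8.57 to 8.83 in the 6 others. Library 2 was thus within the comparator range for its proximal tubule markers. In the same library, the peroxisomal oxidation list was 0.18 below the mean of the 6 others on that log2 scale, the mitochondrial list 0.19 below and the PPAR-responsive list 0.47 below. All 3 lists were under every one of the 6 other libraries there. In libraries 1 and 3 the peroxisomal list was 0.60 and 0.71 below, and the PPAR-responsive list 0.58 and 0.59 below. Markers of the loop of Henle and distal convoluted tubule went the other way, with a median of 0.20 and 5 negative values among 27, and edgeR called none of them. Their mean was 7.10, 6.77 and 7.06 in CDH16KO-AngII libraries 1 to 3, against 6.67 to 6.89 in the 6 others. Library 2 was thus within the comparator range here too. The share of each tubule segment in these samples was not measured, and its part in the lower lipid genes was not tested.

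The called proximal tubule markers were Tmigd1 and Fgf1, and at both of them the comparator groups did not overlap. Tmigd1, an adhesion molecule of the immunoglobulin family, stood at 77.3, 110 and 73.2 CPM in CDH16KO-AngII, at 124 to 141 CPM in AngII and at 228 to 244 CPM in GRPR-AngII. The pooled fall was 2.04-fold (log2 fold change −1.03, SE 0.15, edgeR adjusted p = 0.0201). It was made of −0.62 against AngII and −1.44 against GRPR-AngII, with GRPR-AngII above AngII by 0.82 (unadjusted p = 0.000496, edgeR adjusted p = 0.54). Fgf1, a fibroblast growth factor, stood at 76.5, 90.5 and 86.4 CPM against 120 to 149 CPM in AngII and 163 to 207 CPM in GRPR-AngII (log2 fold change −0.91, SE 0.13, edgeR adjusted p = 0.0201). Its arms were −0.66 against AngII and −1.16 against GRPR-AngII, with 0.51 between the comparator groups (unadjusted p = 0.00541, edgeR adjusted p = 0.647). The span of Fgf1 overlaps Arhgap26 and Gm5820 on the opposite strand. For both genes the order of the 3 groups was CDH16KO-AngII, AngII, GRPR-AngII.

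Azgp1, Cyp2d12, Fbp2 and A4galt completed the named genes called lower. Azgp1, a secreted zinc-binding glycoprotein linked to lipid mobilisation, stood at 29.9, 33.1 and 28.05 CPM against 55.1 to 143 CPM in the 6 others and fell 3.43-fold (edgeR adjusted p = 0.0393). Cyp2d12, a cytochrome P450 gene, stood at 64.4, 63.02 and 59.7 CPM against 93.5 to 171 CPM and fell 2.26-fold (edgeR adjusted p = 0.0324). Fbp2, the muscle-type fructose-bisphosphatase of gluconeogenesis, stood at 9.39, 7.43 and 6.43 CPM against 13.2 to 18.5 CPM and fell 1.99-fold (edgeR adjusted p = 0.0249). It was the single called gene among 20 tested genes of gluconeogenesis and glucose handling, whose median log2 fold change was 0.08. A4galt, the galactosyltransferase that makes the glycolipid Gb3, stood at 7.43, 8.07 and 8.45 CPM against 12.3 to 18.2 CPM and fell 1.78-fold (edgeR adjusted p = 0.0393). None of the 4 had overlapping ranges, and at Fbp2 and A4galt the comparator groups did not overlap with each other either. GRPR-AngII minus AngII was 0.31 for Fbp2 and −0.33 for A4galt (unadjusted p = 0.0884 and 0.0552, edgeR adjusted p = 0.736 and 0.732). The remaining called genes were Zfp429, a zinc finger gene under the abundance limit for naming, at 0.212 to 0.515 CPM against 2.29 to 4.56 CPM, and the clone-named 1810034E14Rik, at 2.63 to 4.21 CPM against 9.89 to 13.2 CPM.

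Glutathione genes and targets of NRF2, the factor of the antioxidant response, were mostly lower in value: 32 of 37 tested members were negative, around a median of −0.29. No member was called by edgeR, and 4 (10.8%, against 1.66% of all tested genes) lay below all 6 others. Nqo1, a quinone reductase, stood at 39.04, 30.5 and 22.9 CPM against 52.8 to 76.9 CPM (log2 fold change −1.02, SE 0.19, edgeR adjusted p = 0.0619). Mgst1, a microsomal glutathione transferase, had a log2 fold change of −0.61 (edgeR adjusted p = 0.192). Gsta1, an alpha-class transferase, averaged 4.14 ± 1.70 CPM in CDH16KO-AngII, close to GRPR-AngII at 5.78 ± 1.97 CPM and under AngII at 14.5 ± 1.68 CPM (SD, n = 3 each). Its pooled log2 fold change of −1.15 (edgeR adjusted p = 0.205) therefore came from an arm of −1.81 against AngII and one of −0.48 against GRPR-AngII, with −1.33 between the comparator groups (unadjusted p = 0.00178, edgeR adjusted p = 0.602).

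The named genes called higher belonged to no shared metabolic route. The largest rises were those of 3 histone H2B genes in the histone cluster of chromosome 13. H2B is one of the core histones around which DNA is wound. Hist1h2bq (chromosome 13, 21806612 to 21810197) stood at 3.98, 8.83 and 6.62 CPM in CDH16KO-AngII. It stood at 0.552, 0.752 and 1.05 CPM in AngII and at 0.624, 0.772 and 0.675 CPM in GRPR-AngII. The lowest CDH16KO-AngII library was above the highest of the others, and the rise was 8.79-fold (log2 fold change 3.14, SE 0.29, edgeR adjusted p = 0.0021). H2bc13 (chromosome 13, 21715763 to 21716143) stood at 0.877, 2.56 and 1.49 CPM against 0.132 to 0.205 CPM, where 3 counts are worth 0.0496 to 0.0737 CPM. It rose 10.4-fold (log2 fold change 3.38, SE 0.37, edgeR adjusted p = 0.00426). H2bc12 (chromosome 13, 22035870 to 22036345) stood at 2.29, 6.60 and 4.001 CPM against 0.467 to 1.25 CPM and rose 5.99-fold (log2 fold change 2.58, SE 0.37, edgeR adjusted p = 0.0201).

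The other tested histone genes had values in both directions. Of 10 tested histone genes edgeR called 3 higher, where 0.168% of all tested genes were called higher, and none lower. All 3 CDH16KO-AngII libraries lay above the 6 others at 4 of the 10 (40%, against 1.64% of all tested genes) and below them at 2 (20%, against 1.66%), and the median was −0.00. Hist1h2bq and H2bc13 reached the expression filter only through the CDH16KO-AngII libraries, where they were high. The shares called higher or above the others were thus partly set by the filter, and no conclusion is drawn from them. H2bc6 was above the others without a call, at 5.91, 9.34 and 9.28 CPM against 2.99 to 5.04 CPM (log2 fold change 1.11, edgeR adjusted p = 0.0621). H2bc8 was below them, at 14.1, 14.5 and 13.6 CPM against 20.2 to 24.4 CPM (log2 fold change −0.63, edgeR adjusted p = 0.0777). H2bc4, the most abundant of the tested H2B genes, stood at 136 to 147 CPM against 181 to 207 CPM and had a log2 fold change of −0.45 without overlap (edgeR adjusted p = 0.139). Reads of these genes cannot be assigned with certainty. At 95% identity or more, Hist1h2bq matches Hist1h2br over 100% of its longest transcript, H2bc13 matches 12 other genes over at least 50% of its own, and H2bc12 matches 9. Among the matches of H2bc13 was Hist1h2bc, an older name of H2bc4, over 100% of its length at up to 98.4% identity. Among those of H2bc12 was Hist1h2bg, an older name of H2bc8, over 81.7% at up to 97.4% identity. Reads may therefore be exchanged between H2B genes that rose and H2B genes with negative values. H2bc6, H2bc8 and H2bc4 were not themselves used as search sequences.

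Promoters of H2bc12 and H2bc13, which rose, and of H2bc8, which did not, are shown side by side. The octamer ATTTGCAT, bound by POU-domain factors and known from H2B promoters, was searched on both strands without mismatch and occurred in 570 of 32851 promoters (1.74%). It was present in 3 of the 4 tested H2B genes with an entry, H2bc12, H2bc6 and H2bc8, and absent from the window of H2bc13. Its first base lay 30 bases before the start in H2bc12 (chr13:22035571-22035870, plus strand) and 59 bases before it in H2bc8 (chr13:23571150-23571449, plus strand). The H2bc13 window was chr13:21716134-21716433 on the minus strand. Capitals mark the octamer, which was thus found in a gene that rose and in one that had a negative value.
H2bc12: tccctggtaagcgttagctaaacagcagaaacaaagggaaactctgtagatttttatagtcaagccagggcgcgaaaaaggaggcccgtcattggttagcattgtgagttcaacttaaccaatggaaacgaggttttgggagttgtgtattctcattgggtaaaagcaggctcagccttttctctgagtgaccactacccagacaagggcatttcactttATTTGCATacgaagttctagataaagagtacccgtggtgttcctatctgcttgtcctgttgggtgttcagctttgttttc
H2bc13: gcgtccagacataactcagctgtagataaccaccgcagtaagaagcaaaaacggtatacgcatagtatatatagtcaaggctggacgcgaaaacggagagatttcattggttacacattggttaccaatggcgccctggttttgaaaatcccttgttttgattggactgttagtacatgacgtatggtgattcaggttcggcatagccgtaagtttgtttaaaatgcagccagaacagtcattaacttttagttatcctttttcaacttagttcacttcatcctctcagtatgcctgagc
H2bc8: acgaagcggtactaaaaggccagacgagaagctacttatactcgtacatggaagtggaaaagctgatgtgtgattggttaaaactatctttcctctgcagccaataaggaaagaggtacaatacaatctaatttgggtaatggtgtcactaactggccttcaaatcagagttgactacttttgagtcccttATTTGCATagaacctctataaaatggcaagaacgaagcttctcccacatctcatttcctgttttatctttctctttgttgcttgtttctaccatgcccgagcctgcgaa

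Hddc3, a phosphohydrolase gene of the HD-domain family (chromosome 7, 80343104 to 80350547), stood at 16.9, 27.8 and 33 CPM in CDH16KO-AngII. It stood at 5.72, 6.66 and 5.22 CPM in AngII and at 4.81, 6.11 and 3.64 CPM in GRPR-AngII, so that the comparator groups overlapped and CDH16KO-AngII was far above both. The rise was 4.84-fold (log2 fold change 2.28, SE 0.22, edgeR adjusted p = 0.0023). Its span overlaps Man2a2 and Unc45a on the opposite strand and shares 70.9% of its longest transcript with the model Gm18310, and whether counting used the strand is not stated in the labels. Cnbd2, a cyclic nucleotide-binding domain gene, stood at 82.8, 67.5 and 110 CPM against 15.1 to 42.2 CPM and rose 3.33-fold (edgeR adjusted p = 0.0393). The span of Cnbd2 overlaps Gm14251 and Gm22759 on its strand and Gm14253 and Scand1 on the opposite strand. It shares 16.6% of its longest transcript with Gm14252, so part of its reads may not be its own. Tsen54, a subunit of the endonuclease that splices tRNA, stood at 51.7, 37.9 and 65.4 CPM against 20.5 to 33.5 CPM and rose 2.13-fold (edgeR adjusted p = 0.0341). Riok3, an atypical kinase, rose 1.64-fold from 64.4 to 106 CPM and Arsk, a lysosomal sulfatase, rose 1.64-fold from 13.5 to 22.1 CPM (edgeR adjusted p = 0.0393 for both).

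Col6a6, a chain of collagen VI (chromosome 9, 105687809 to 105828160), was the called gene at which the comparator groups differed most. It stood at 2.19, 1.96 and 1.89 CPM in AngII, at 6.32, 15.6 and 11.9 CPM in GRPR-AngII and at 19.2, 27.3 and 35.8 CPM in CDH16KO-AngII. The 3 groups did not overlap, and both groups with the Cre were above the group without it. The pooled rise was 5.75-fold (log2 fold change 2.52, SE 0.26, edgeR adjusted p = 0.00303). It was made of 3.77 against AngII and 1.28 against GRPR-AngII, with GRPR-AngII above AngII by 2.48 (unadjusted p = 1.71e-05, edgeR adjusted p = 0.107). Col6a6 was the single called gene of 34 tested genes of extracellular matrix and fibrosis, whose median was 0.13. Of that list Col4a4 and Col4a3, chains of basement membrane collagen IV, were also above all 6 others without a call (log2 fold changes 0.29 and 0.33), and Acta2, the smooth muscle actin gene, had a log2 fold change of 0.49 (edgeR adjusted p = 0.607) with overlapping ranges, which was 0.18 without CDH16KO-AngII library 1.

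**Figure D3:**
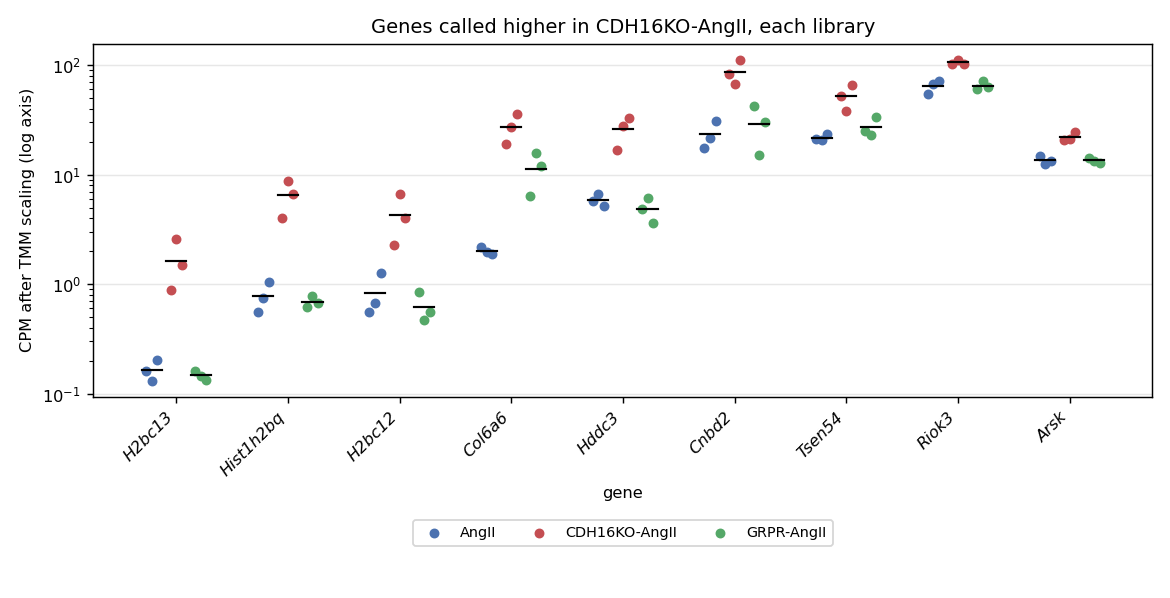
Expression of the 9 named genes called higher in CDH16KO-AngII, in CPM on a log axis, with 1 point per library and a line at each group mean. By the rule for naming, all 3 CDH16KO-AngII points of each gene lie above all 6 others. Only for Col6a6 does GRPR-AngII, at 6.32 to 15.6 CPM, lie clear of AngII at 1.89 to 2.19 CPM.

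Of the 36 called genes, 13 carried predicted-gene, clone or pseudogene names, 11 of them higher names beginning with Gm. Of these, Gm42427, Gm47469, Gm4316, Gm37416 and Gm3411 reached the expression filter only through the CDH16KO-AngII libraries, where they were high. The number of such genes called higher was thus partly set by the filter, and no conclusion is drawn from it. Gm8730, a predicted gene on chromosome 8, had the smallest p of all genes, at 133, 63.2 and 57.6 CPM against 4.72 to 8.19 CPM (log2 fold change 3.67, edgeR adjusted p = 0.00051). It matches 4 other genes over at least 50% of its transcript, and its reads cannot be assigned with certainty. Called genes also match each other: Gm6278 matches Gm8730 over 99.6% of its length, and Gm4316 matches Gm42427 over 50.1%. Such calls may not be separate. Rps3a3 was called as well (log2 fold change 5.73, edgeR adjusted p = 0.0324), although CDH16KO-AngII library 1, at 0.762 CPM, lay within the range of the 6 others, 0.695 to 1.61 CPM. The value of Rps3a3 thus rests on libraries 2 and 3. Rps3a3 matches 6 other genes over at least 50% of its length, so its reads may not be its own.

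The arms of the pooled contrast were set side by side for the 22 named called genes. They share the CDH16KO-AngII libraries, so each arm's values are given and not a comparison between them. Both arms had the same sign at each of the 22, which was fixed in advance, since only called genes without overlap were named. For Vnn1 they were −1.55 against AngII and −1.58 against GRPR-AngII, for Acot2 −0.87 and −0.89, for Acox2 −1.31 and −1.22, for Cyp4a12b −2.996 and −2.93, and for Hist1h2bq 3.05 and 3.22. At these 5 genes GRPR-AngII minus AngII lay between −0.17 and 0.03. By list, the median log2 fold change against AngII and against GRPR-AngII was −0.54 and −0.38 for peroxisomal oxidation, −0.52 and −0.36 for mitochondrial oxidation, −0.37 and −0.27 for PPAR-responsive genes and −0.33 and −0.33 for glutathione genes.

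**Figure D4:**
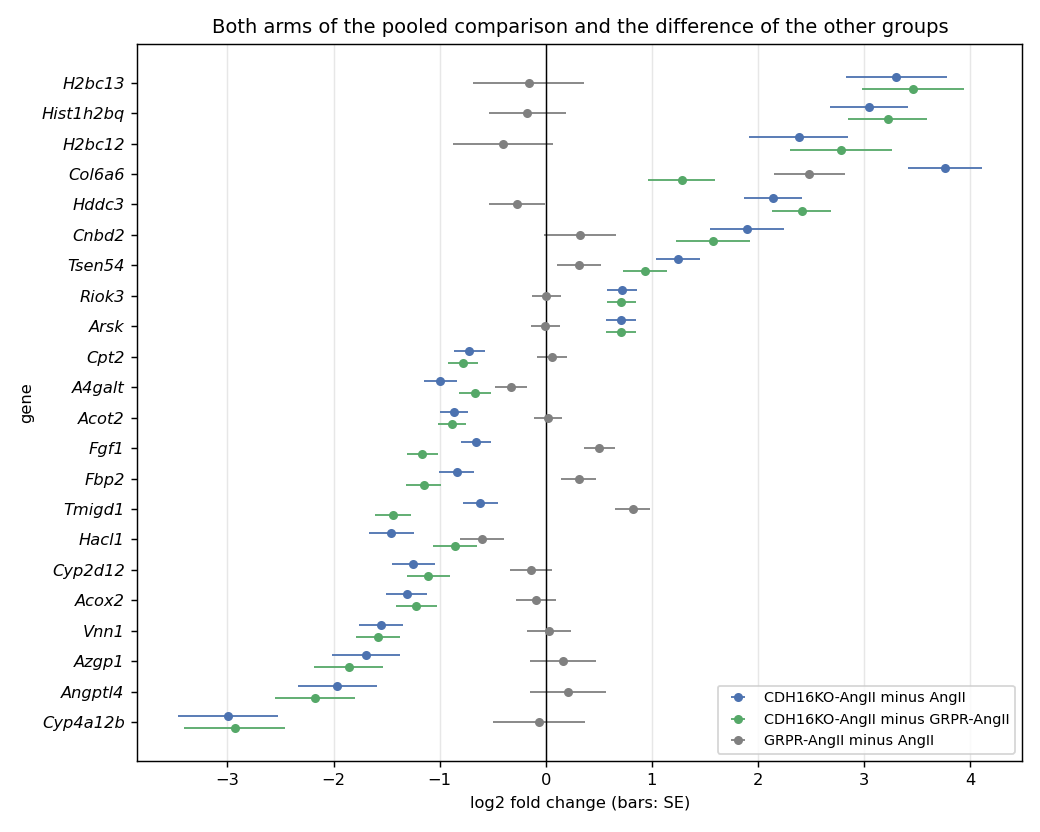
Log2 fold changes (points) with SE (bars) of the 22 named called genes for CDH16KO-AngII minus AngII, CDH16KO-AngII minus GRPR-AngII and GRPR-AngII minus AngII. The first 2 lie on the same side of 0 for every gene, which the choice of genes without overlap fixed in advance. The third lies near 0 except at genes such as Col6a6, Tmigd1, Hacl1 and Fgf1, where it is 2.48, 0.82, −0.60 and 0.51.

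Differences were unevenly spread over the genome. On chromosome 13, CDH16KO-AngII lay outside the range of the 6 others at 46 of 459 tested genes (10%) and 9 were called, where 3.3% of all tested genes lay outside in either direction. On chromosome 18 the counts were 19 of 307 (6.19%) with 2 called, Fgf1 and Riok3. There the share was 23.1% (6 of 26) from 10 to 20 Mb, which holds Riok3, and 5.75% (5 of 87) from 30 to 40 Mb, which holds Fgf1 and Sting1. On the rest of the genome they were 348 of 11741 (2.96%) with 25 called. Within chromosome 13 the share was 25% (10 of 40 genes) from 20 to 30 Mb, which holds the H2B genes above, and 21.4% (9 of 42) from 60 to 70 Mb, which holds Fbp2 and Zfp429. It was 16.1% (5 of 31) from 70 to 80 Mb, which holds Arsk and Gm47469, and 2.63% (1 of 38) from 110 to 120 Mb. Both directions occurred on the chromosome, with 19 genes above and 27 below. The shares include Hist1h2bq, H2bc13 and Gm47469, which reached the expression filter only through the CDH16KO-AngII libraries, and may include further such genes. These shares were thus partly set by the filter. Neighbouring genes are not independent, and genetic background was not tested.

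**Figure D5:**
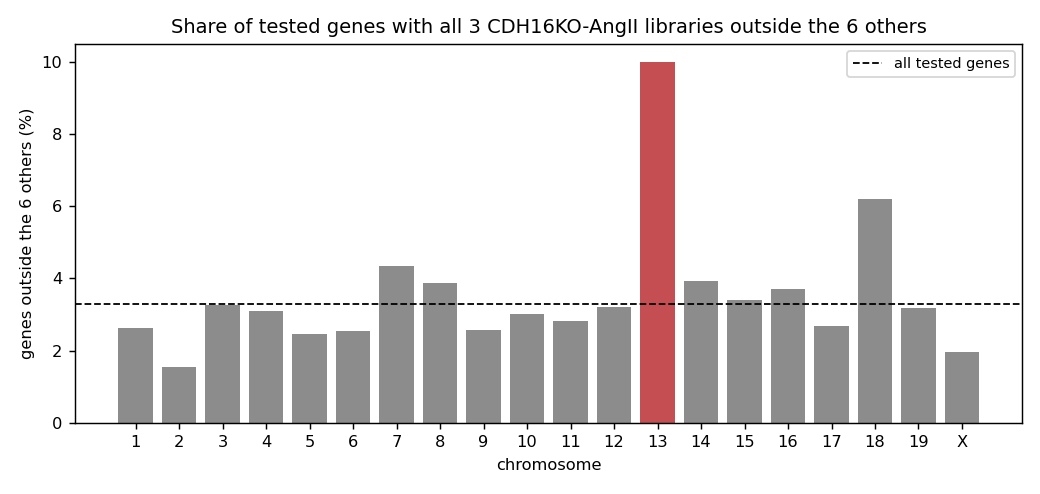
Share of tested genes (%) on each chromosome at which all 3 CDH16KO-AngII libraries lay outside the range of the 6 others, in either direction. The dashed line is the share over all tested genes, 3.3%; chromosome 13 (red) stands at 10% and the next highest, chromosome 18, at 6.19%.

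The libraries also differed in the counts given to 2 overlapping annotated models of Nnt, in a way that crossed the groups. Nnt is the mitochondrial transhydrogenase gene at the far end of chromosome 13. Its first model stood at 6.74, 3.855 and 68.3 CPM in AngII, at 44.7, 48.6 and 74.8 CPM in CDH16KO-AngII and at 69.96, 61.3 and 74.5 CPM in GRPR-AngII. The second stood at 96.2, 88.2 and 0 CPM in AngII, at 23.1, 38.1 and 0 CPM in CDH16KO-AngII and at 0, 15.1 and 0 CPM in GRPR-AngII. Every library thus had Nnt counts, and reads of the 2 models cannot be assigned with certainty. Only 5 libraries had counts of the second model, 2 of AngII, 2 of CDH16KO-AngII and 1 of GRPR-AngII. With those 5 alone 5 genes were called, 3 higher and 2 lower, and Vnn1, Acox2 and Hist1h2bq were not among them. Their log2 fold changes there were −1.33, −1.27 and 3.16. All 36 called genes kept their direction, which for all but Rps3a3 was fixed in advance by the lack of overlap between CDH16KO-AngII and the others. The part of the Nnt models in the results was not tested.

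Lists on STING signalling, inflammation, ferroptosis and tubular injury held no called gene. STING pathway and interferon response genes had 16 of 28 tested members negative, a median of −0.04 and 0 edgeR calls. Below all 6 others lay 1 member (3.57%, against 1.66% of all tested genes), Trim30a (3.94 CPM against 6.52 in AngII and 6.77 in GRPR-AngII, edgeR adjusted p = 0.313). Irf3, the factor downstream of STING, had a log2 fold change of 0.26, the interferon-induced Ifi27 0.67 and the nucleotide hydrolase Samhd1 −0.28. NF-kB, cytokine and chemokine genes had a median of 0.08, with Ccl5 at −0.89, Nfkb2 at 0.35, Cxcl16 at 0.28 and Il34 at 0.45. Ferroptosis and iron genes had a median of −0.14, with the cystathionine synthase gene Cbs at −0.51 and below all 6 others, Hmox1 at −0.95, the ferritin gene Fth1 at −0.42 and the zinc and iron carrier Slc39a8 at −0.31. The value of Slc39a8 came from the arm against GRPR-AngII, −0.64, since that against AngII was 0.03 and GRPR-AngII was above AngII by 0.68 (unadjusted p = 0.0139, edgeR adjusted p = 0.686). Tubular injury and repair genes had a median of −0.01, with the fibrinogen chains Fga and Fgg at −1.46 and −2.02, Tnfrsf12a at 0.29 and Spp1 at −0.27. In the edgeR fit used for calls none of these genes was called, and the smallest adjusted p among those named was 0.241. DESeq2 did call Trim30a, Cbs and Fga, and the edgeR alternative with a replicate block called Fga. Several of these values moved by over 1.5 times when 1 library was left out. Ifi27 was 0.26 without CDH16KO-AngII library 1, which stood at 102 CPM where libraries 2 and 3 stood at 51.4 and 51.3 CPM, within the AngII range. Hmox1 was −0.585 without GRPR-AngII library 2, at 78.8 CPM the highest of the 9, and Fth1 was −0.75 without CDH16KO-AngII library 2 and −0.26 without library 3. Without CDH16KO-AngII library 3, Irf3 was 0.10, Cxcl16 0.15, Il34 0.245 and Slc39a8 −0.19, and Slc39a8 was −0.55 without library 1. Tnfrsf12a was 0.17 without AngII library 1 and Spp1 −0.16 without AngII library 3.

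Markers of other cells in kidney tissue were read in the same way. Macrophage and dendritic cell markers had a median of −0.33, 12 of 14 tested members being negative. Medians were −0.54 for 5 T and NK cell markers, 0.05 for 19 endothelial markers, 0.06 for 12 podocyte markers, 0.05 for 17 stromal and mural cell markers and −0.09 for 26 collecting duct markers. They were −0.13 for 9 B and plasma cell markers, −0.59 for 6 erythroid markers and −0.58 for 4 urothelium and renal pelvis markers. For 3 adipocyte markers the median was −0.53, and for 2 neutrophil markers −0.91 (−0.08 against AngII and −1.74 against GRPR-AngII). The content of blood and adjoining tissue was not measured. The mitochondria-coded genes had a median of 0.16, with 15 of 15 positive. That median was 0.30 against AngII and 0.002 against GRPR-AngII, and ran from −0.01 to 0.35 over the alternative fits. The mean of these genes was lowest of all libraries in CDH16KO-AngII library 2. No member of these lists was called by edgeR.

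The firmness of the calls varied with single libraries. Vnn1, Hist1h2bq, Hddc3, Col6a6 and H2bc13 were called in all 9 fits that each left out 1 library, with an adjusted p of at most 0.0317. Acox2 was called in 8 and Acot2 in 7. Acox2 lost its call without CDH16KO-AngII library 3, and Acot2 without that library or AngII library 1 (edgeR adjusted p = 0.1004 for each without CDH16KO-AngII library 3). Cyp4a12b was called in 5, Fgf1, H2bc12 and Cnbd2 in 4, Tmigd1 in 3, Cyp2d12, Tsen54, Hacl1, Azgp1 and Angptl4 in 2, Fbp2, Riok3 and Cpt2 in 1, and A4galt and Arsk in 0. All 22 kept their direction in each of these fits. That was fixed in advance, since genes named for lack of overlap still lack it when 1 library is left out. The fewest of the 22 were called without CDH16KO-AngII library 3 (5), AngII library 1 (6) and AngII library 2 (8), and 11 to 15 were called without any 1 of the other libraries.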

How the data were processed

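Kidney RNA of 3 groups of 3 libraries was sequenced by the submitters with a SMARTER mRNA-Seq kit, per the labels' protocols. The deposited gene counts were treated as estimated counts, the authors' expected count per gene: they are whole numbers, but the value 4 is over-represented, so that they may not be raw reads. FPKM values were computed by the authors, as deposited. The submitters' processing notes name GRCm38 and mm10; no aligner, counter or strand setting is given in the sources used here.

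Genes reaching FPKM 1 in 3 or more of the 9 libraries were tested with edgeR 4.0.16 (quasi-likelihood, TMM, R 4.3.3) in 1 fit of all libraries with a coefficient per group. The contrast was CDH16KO-AngII minus the mean of the 2 other groups, with Benjamini-Hochberg adjustment over 12507 genes and a threshold of 0.05. DESeq2 1.42.0, limma 3.58.1, other filters and scalings, and leaving out each library were alternatives. Shared sequence was searched with blastn 2.17.0 (95% identity), and promoters came from RefSeq.

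Named genes were Sting1, Cdh16 and Acsl4, then up to 15 called genes in each direction by fold change, without overlap between groups, with a mean FPKM of 2 or more in 1 group and no predicted, clone or pseudogene name, then up to 4 members by smallest p of lists with a called member or on the pathways described. Others named were chosen after their values were seen, and some genes that the rule names are not reported here. The comparison and the 40 gene lists were chosen with earlier results of these data known.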

Additional observations from a re-analysis of the deposited data

How the results depend on the processing

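Against 21 genes called higher and 15 lower, testing every gene with a count gave 41 and 32, an FPKM minimum of 0.1 gave 37 and 21, and a minimum of 5 gave 6 and 11. DESeq2 called 73 and 132. Among them were Nudt7, Ehhadh, Nqo1, Cyp4a10, Cyp4a12a, Trim30a, Cbs and Fga, which the edgeR fit used for calls did not call. Dividing the counts by 4, an alternative chosen after seeing the data, gave 21 and 19. The 5 libraries with counts of the second Nnt model gave 3 and 2, with 1 GRPR-AngII library, which was assumed to vary like the others. Leaving out 1 library gave 12 to 33 higher and 3 to 40 lower, with the fewest lower without CDH16KO-AngII replicate 3 and the most without CDH16KO-AngII replicate 2. Replicate numbers are shared by the groups, but the deviations of same-numbered libraries correlated unevenly, with r of −0.122 to 0.091 for replicate 1, 0.134 to 0.298 for replicate 2 and 0.237 to 0.283 for replicate 3. Not every pair was over 0.1, so the samples were not treated as paired; the fit with a replicate block called 21 higher and 23 lower. Apart from the construction of each alternative, the cause was not tested. That block ended the calls of H2bc12, A4galt, Azgp1, Arsk and Cpt2, and taking the 6 others as 1 group ended those of Col6a6, Fgf1, Tmigd1, A4galt and Hacl1. The 36 called genes kept their direction under every setting that tested them. All but Rps3a3 had no overlap between CDH16KO-AngII and the 6 others, so their direction could hardly change. The depth allows 3 counts to be seen as 0.0496 to 0.0737 CPM.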
